A study of Mus musculus with 12 samples.

Results

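Chloride transport genes of the mouse dorsal root ganglion (DRG), the cluster of sensory nerve cell bodies beside the spinal cord, were followed through 3 preparations of the tissue. The 6 genes were chosen by symbol, out of 24490 genes in the expression table: the cation-chloride cotransporters Slc12a2 and Slc12a5, the anoctamins Ano1 and Ano3, and the CLC family members Clcn2 and Clcn3. There were 4 RNA-seq samples each of intact DRG, of DRG dissociated acutely and left unsorted, and of DRG cells sorted magnetically (MACS). The mice were adult C57Bl/6 animals with no genetic change or treatment, and ganglia of all levels were taken. Intact ganglia were frozen directly, and each sample came from 1 mouse. Unsorted samples came from 2 mice each and had been treated with dispase, collagenase and DNAse, triturated and filtered. MACS-sorted samples came from 8 mice each and had also passed a magnetic column, which held back cells tagged by a mixture of antibodies to non-neuronal cells. The sorted cells are therefore those that the antibodies did not tag, and the pooling of mice differed between the groups. Expression was given as FPKM, the number of fragments scaled by transcript length and by library size.

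Most neurons of the adult brain hold little chloride inside, whereas sensory neurons of the DRG keep a high internal chloride level, so that opening chloride channels lets chloride out and depolarizes them. NKCC1, the product of Slc12a2, brings chloride in with sodium and potassium, and KCC2, the product of Slc12a5, takes it out with potassium. Ano1 encodes a chloride channel opened by calcium, which has been described as a heat sensor of nociceptors. Ano3 encodes a related anoctamin that is not established as a chloride channel itself. ClC-2, from Clcn2, is a chloride channel opened by hyperpolarization, and ClC-3, from Clcn3, exchanges chloride for protons in endosomes and synaptic vesicles.

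Ano3 had the highest level of the 6 genes in every sample, between 35.2 and 92.4 FPKM. Clcn3 and Slc12a2 came next, between 21.9 and 40.6 FPKM. Their ranges overlapped in intact DRG (30.7 to 37.4 and 32.8 to 36.3 FPKM) and in unsorted DRG (34.4 to 40.6 and 31.4 to 39.2 FPKM). In MACS-sorted samples Clcn3 lay above Slc12a2 without overlap (31.5 to 37.1 against 21.9 to 23.9 FPKM). Ano1 and Clcn2 followed at a few FPKM or below. Clcn2 lay above Ano1 in every intact sample, and Ano1 lay above Clcn2 in every unsorted sample. Slc12a5 stayed between 0.0535 and 0.339 FPKM, lowest in all intact and unsorted samples, and it overlapped with Ano1 in MACS-sorted samples (0.113 to 0.541 FPKM for Ano1). The plot of each gene by sample shows these levels.

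**Figure D1:**
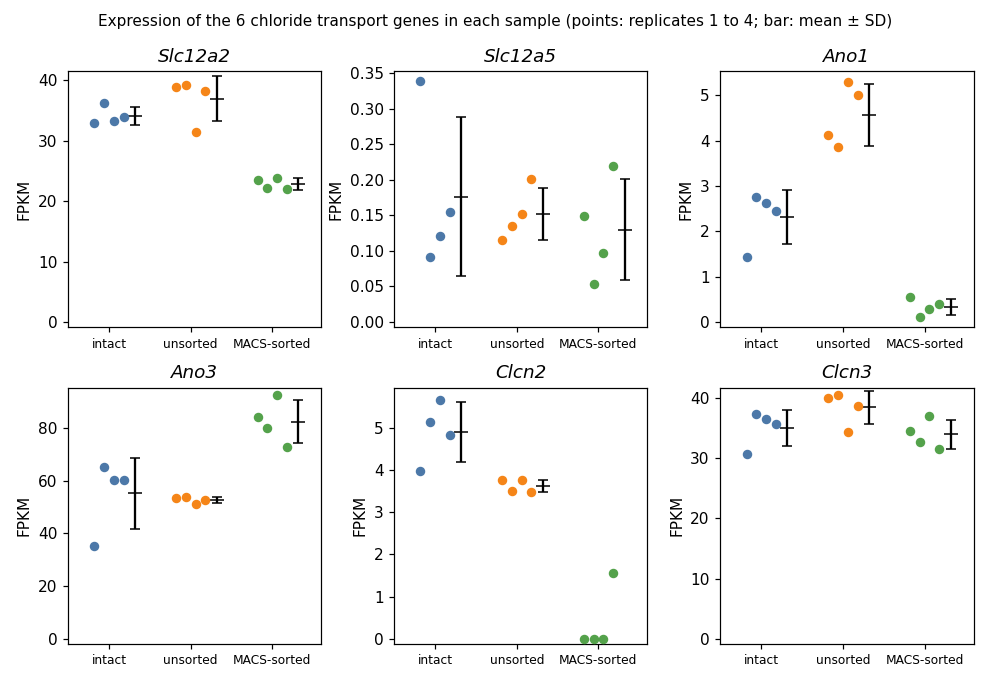
FPKM of the 6 genes in the 4 intact, 4 unsorted and 4 MACS-sorted samples, 1 panel per gene with its own linear axis; points are samples and the bar beside them is the mean ± SD, left out for Clcn2 in MACS-sorted samples, where 3 of 4 samples are listed at 0. Slc12a2, Ano1 and Clcn2 are lower and Ano3 is higher in every MACS-sorted sample than in every unsorted sample.

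The libraries held an estimated 13600000 to 19400000 fragments each. The 8 pan-neuronal markers, among them Tubb3 and Uchl1, were high throughout, with sums from 3502 to 4822 FPKM. After sorting they were divided against unsorted samples: Avil, Elavl4 and Isl1 rose, Snap25 and Tubb3 fell (-0.94 and -0.38, adjusted p = 7.67e-06 and 0.0343) and 3 did not pass. In MACS-sorted against unsorted samples all 8 satellite glial markers fell (sums of 457 to 621 FPKM unsorted and 84.7 to 133 FPKM MACS-sorted), as did 6 of 7 Schwann cell and 6 of 7 fibroblast markers. The sorted satellite glial sums were mostly Glul, which averaged 100.3 FPKM in sorted samples. Against intact samples Glul did not pass the test (-0.41, adjusted p = 0.0583 by limma). Of 11 small-diameter nociceptor markers 9 rose, and all 7 large-diameter neuron markers fell, from sums of 1939 to 2307 to sums of 378 to 545 FPKM. None of 6 endothelial markers passed the test, all tested pericyte, macrophage and neutrophil markers fell except Rgs5, which rose, and all 8 tested red blood cell rows rose. Haemoglobin genes took 0.681%, 0.865%, 5.14% and 7.13% of all FPKM in MACS-sorted replicates 1 to 4 and at most 0.259% elsewhere. Defining glial genes were not at 0 in the sorted samples: Sox10 was at 0.258, 0.149, 0.361 and 2.32 FPKM there, against 20.4 to 28.7 FPKM in the other groups. Intact replicate 1 stood apart from the other intact samples, with a median gene difference of 0.287 to 0.323 on the log2 scale against 0.0703 to 0.0889 among the rest. It had the lowest intact level of every one of the 6 genes except Slc12a5, for which it was highest.

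The first question was which of these genes differed between the sorted, neuron-rich cells and separate samples of the unsorted mixture. Slc12a2, Ano1 and Clcn2 were lower after MACS sorting and Ano3 was higher, while Clcn3 did not pass the test and Slc12a5 was too low to test. Groups were compared by limma on log2(FPKM + 0.1), 2-sided, with Benjamini-Hochberg adjustment over 12038 genes that averaged 1 FPKM or more, and 5 of the 6 genes reached that level. At an adjusted p under 0.05, 4 of the 5 passed, where 46.5% of all genes tested did so (18.8% higher and 27.7% lower). Higher calls were 2261 of 5592 over all genes, and 4039 of 6806 under quantile normalization, which left the direction of the 4 genes as it was. With the study's further criteria, a log2 ratio of group means beyond 0.5 and over 5 FPKM on average in whichever group is higher, 2 passed (Ano3 higher and Slc12a2 lower), against 20.7% of all genes (8.15% higher and 12.5% lower). The groups did not overlap for 1 gene that was higher and 3 that were lower, where 18.4% and 27.8% of all genes were so separated. In bulk RNA of this kind, fewer cells of a type and less RNA per cell cannot be told apart.

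Slc12a2, the inward cotransporter, lies on the plus strand of chromosome 18 of mm10 from 57878678 to 57946821. It was at 38.9, 39.2, 31.4 and 38.1 FPKM in unsorted replicates 1 to 4 and, in the same order, at 23.5, 22.1, 23.9 and 21.9 FPKM after sorting. All sorted samples lay below all unsorted ones, and the sorted samples were close to each other. The mean went from 36.9 ± 3.71 to 22.9 ± 0.964 FPKM (SD, n = 4 each), a ratio of 0.619. On the log2(FPKM + 0.1) scale Slc12a2 fell by 0.69 (standard error, SE, 0.083, and adjusted p = 0.000123 by limma). With red blood cell genes removed and the rest rescaled the difference was -0.63. The 8 satellite glial markers had a median log2-fold change of -5.59 in the same comparison, against -0.04 for all genes tested.

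Slc12a5, the outward cotransporter, lies on chromosome 2, plus strand, from 164967988 to 164999731. The annotation of GRCm38 (GENCODE) places the gene's start further upstream, at 164960802, so transcripts that begin there are covered by the deposited gene model only in part. Its level was 0.339, 0.0910, 0.121 and 0.155 FPKM in intact and 0.116, 0.136, 0.152 and 0.201 FPKM in unsorted replicates 1 to 4, and after sorting it was 0.148, 0.0535, 0.0972 and 0.219 FPKM. The 3 groups overlapped. These levels rest on an estimated 5 to 33 fragments per sample. A difference between groups was not detectable at this depth by the exact permutation test, 2-sided, of mean log2(FPKM + 0.1), with p = 0.514 between sorted and unsorted, 0.829 between unsorted and intact, and 0.543 between sorted and intact samples (0.814, 0.829 and 0.814 adjusted over the 3). With 4 samples against 4 the smallest p this test allows is 0.0286.

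Since both cotransporters were measured in the same samples, the ratio of their FPKM could be formed within each sample. Slc12a2 was 96.9 to 399 times as high as Slc12a5 in intact samples. This ratio was 189 to 336 where cells were unsorted and 100.0 to 414 where they were sorted. The ranges overlapped. On the log2 scale, with 0.1 FPKM added to each gene, the mean ratio was 7.21 in unsorted and 6.70 in MACS-sorted samples, a difference of -0.51 (exact permutation test, 2-sided, p = 0.114, adjusted over 3 comparisons 0.342). The differences were 0.18 for unsorted against intact (exact p = 0.686, adjusted 0.686) and -0.33 for MACS-sorted against intact samples (exact p = 0.371, adjusted 0.556). With a pseudocount of 1, which all but removes Slc12a5 from the ratio, the MACS-sorted samples were lower than both other groups (-0.64 and -0.50, exact p = 0.0286 each).

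Ano1, the calcium-activated channel, lies on the minus strand of chromosome 7 from 144588549 to 144738592. Unsorted replicates 1 to 4 were at 4.13, 3.86, 5.28 and 5.00 FPKM and MACS-sorted replicates at 0.541, 0.113, 0.284 and 0.397 FPKM, the latter from an estimated 8 to 33 fragments each. Every sorted sample lay far below every unsorted one. The mean went from 4.57 ± 0.681 to 0.334 ± 0.181 FPKM (SD, n = 4 each), a ratio of 0.0731. The log2-fold change was -3.53 (SE 0.326, adjusted p = 2.4e-05 by limma), and between -3.92 and -2.06 over the pseudocounts, scalings and other settings tried. Ano1 stayed below the mean of 5 FPKM that the study's criteria ask for in the higher group. Its fall stood beside a rise of Scn10a, the sodium channel of small nociceptors (0.71, adjusted p = 0.000241), and of Trpv1, the heat and capsaicin receptor (0.48, adjusted p = 0.0476), although the Trpv1 groups overlapped. Nefh, the heavy neurofilament of large-diameter neurons, fell with a log2-fold change of -3.16 (adjusted p = 1.17e-06). The part of cell composition in the change of Ano1 was not tested.

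Ano3 lies on chromosome 2, minus strand, from 110655201 to 110950244. Muc15, a mucin gene on the opposite strand within that span, was listed at 0 in all 12 samples. The level of Ano3 was 53.3, 53.6, 51.0 and 52.6 FPKM in unsorted replicates 1 to 4 and 84.2, 80.0, 92.4 and 72.9 FPKM after sorting. The sorted samples all lay above the unsorted ones, which varied little. From 52.6 ± 1.17 the mean rose to 82.4 ± 8.18 FPKM (SD, n = 4 each), a ratio of 1.57. The log2-fold change was 0.64 (SE 0.077, adjusted p = 0.000117 by limma). Ano3 made up 39.4% to 40.9% of the summed FPKM of 10 anoctamin genes before sorting and 49.5% to 57.8% after it, and Ano1 went from 2.93% to 4.08% down to 0.0704% to 0.372%.

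Clcn2 lies on chromosome 16, minus strand, from 20702966 to 20716636, and its end overlaps Fam131a on the opposite strand by 83 bases. It was at 3.76, 3.50, 3.76 and 3.48 FPKM in unsorted replicates 1 to 4. In MACS-sorted replicates 1, 2 and 3 it was listed at 0, and in replicate 4 at 1.56 FPKM. All sorted samples lay below the unsorted ones, and only replicate 4 of the sorted samples had a value. An exact 0 in this table can be a failed estimate: Stk16, a broadly used kinase, was listed at 0 in all 4 unsorted samples and Ap1b1, a subunit of a clathrin adaptor, likewise, while their MACS-sorted levels were 10.7 to 12.8 and 35.9 to 50.3 FPKM. The unsorted values rest on an estimated 163 to 193 fragments. The test gave an adjusted p of 0.00252 (limma), with a fitted log2 difference of -4.21 (SE 0.836) that ran from -6.68 to -1.87 over pseudocounts, scalings and other settings and was -5.22 without MACS-sorted replicate 4, so its size is not a fold change of the gene. MACS-sorted replicate 4 was also highest among sorted samples in the glial markers Sox10 (2.32 FPKM) and Fabp7 (10.8 FPKM). This was not particular to glia. The same replicate had the highest sorted sums of Schwann cell, fibroblast, endothelial, pericyte, macrophage and red blood cell markers, though not of neutrophil markers. Its sums of pan-neuronal, small-diameter nociceptor and large-diameter neuron markers were the lowest of the sorted samples. Whether the RNA of other cells bears on Clcn2 was not tested.

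Clcn3 lies on chromosome 8, minus strand, from 60910389 to 60983311. Unsorted replicates 1 to 4 had 40.0, 40.6, 34.4 and 38.7 FPKM and MACS-sorted replicates 34.5, 32.7, 37.1 and 31.5 FPKM. The groups overlapped, through unsorted replicate 3 and MACS-sorted replicate 3. The means were 38.4 ± 2.78 and 33.9 ± 2.43 FPKM (SD, n = 4 each). The log2 difference was -0.18 with a 95% interval of -0.35 to -0.0037 (unadjusted p = 0.0462, adjusted p = 0.0871 by limma), so the adjusted test was not passed, and a fall beyond 0.35 lies outside the interval. Without unsorted replicate 3 the difference was -0.23 and the adjusted p 0.0349.

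**Figure D2:**
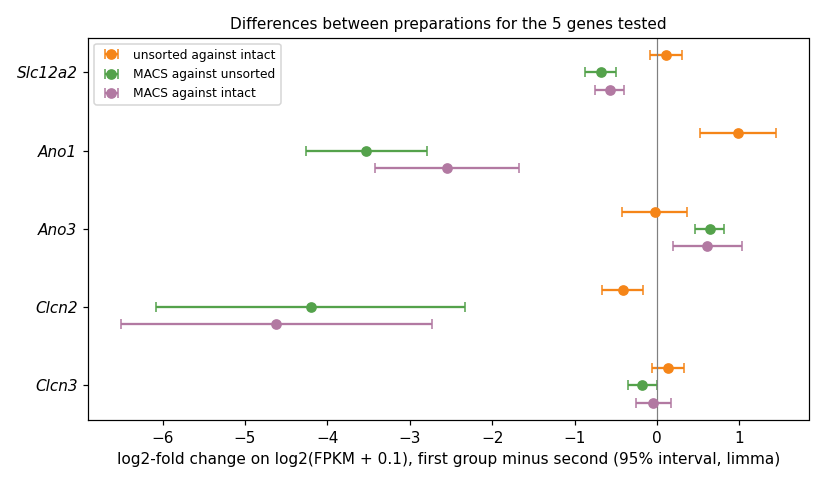
Log2-fold change on log2(FPKM + 0.1) with its 95% interval from limma for the 5 genes tested, in each of 3 comparisons; Slc12a5 is not shown since it lies below 1 FPKM. Ano1 is on opposite sides of 0 for unsorted against intact (0.98) and MACS-sorted against unsorted samples (-3.53), which share the unsorted samples, and the wide bars of Clcn2 come from samples listed at 0.

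The promoters of Ano1, Ano3 and Clcn2 are shown because these genes moved after sorting in different directions from different levels, and their start regions differ in base composition. A promoter entry was found for 5 of the 6 genes. The sequences are from RefSeq (GRCm38.p6, the assembly of mm10), 300 bases on the minus strand around an annotated start of each gene, at chr7:144738524-144738823, chr2:110950195-110950494 and chr16:20716587-20716886. Capitals mark matches, on either strand, to a GC box (GGGCGG, or CCGCCC read on the other strand) and to the core of Sox factor sites (ACAANG, or CNTTGT).
Ano1: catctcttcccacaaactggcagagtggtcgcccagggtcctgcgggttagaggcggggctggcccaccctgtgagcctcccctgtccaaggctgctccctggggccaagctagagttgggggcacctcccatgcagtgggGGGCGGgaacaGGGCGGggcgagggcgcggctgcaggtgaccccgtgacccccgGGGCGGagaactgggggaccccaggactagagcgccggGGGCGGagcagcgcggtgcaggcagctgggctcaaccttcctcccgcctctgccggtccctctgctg
Ano3: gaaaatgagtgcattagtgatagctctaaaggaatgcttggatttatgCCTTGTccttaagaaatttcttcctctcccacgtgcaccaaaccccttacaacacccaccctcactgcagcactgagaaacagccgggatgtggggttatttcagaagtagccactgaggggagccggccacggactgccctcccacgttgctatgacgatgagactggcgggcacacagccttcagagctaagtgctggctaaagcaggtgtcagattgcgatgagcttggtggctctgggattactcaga
Clcn2: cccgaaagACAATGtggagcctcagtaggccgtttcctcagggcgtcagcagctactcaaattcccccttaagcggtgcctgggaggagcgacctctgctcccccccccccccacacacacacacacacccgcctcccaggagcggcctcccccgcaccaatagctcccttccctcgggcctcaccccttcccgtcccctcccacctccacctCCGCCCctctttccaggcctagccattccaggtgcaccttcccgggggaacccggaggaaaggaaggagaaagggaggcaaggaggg
The Ano1 window held 4 GC boxes, 18 CpG dinucleotides and 71.7% G and C. The Ano3 window held no GC box, 1 match to the Sox core, 8 CpG and 52.0% G and C. The Clcn2 window held 1 GC box, 1 match to the Sox core, 13 CpG and 65.7% G and C. A TATA box (TATAAA) and the site of AP-1 factors (TGANTCA), searched on both strands, had no match in the 3 windows. Over all 32851 promoters of the same table, 35.7% held the GC box, 41.2% the Sox core, 13.6% the TATA box and 7.81% the AP-1 site, so these short matches are common and describe the letters only. The Ano1 start in RefSeq is 19 bases from the start in the deposited gene model, and for Ano3 and Clcn2 both starts are the same base. GENCODE places the outermost start of Ano1, Ano3 and Clcn2 further upstream, at 144751974, 110950923 and 20717746, outside these windows. The windows therefore do not cover every annotated start of these genes.

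The next comparison asked what dissociation itself changed, with unsorted set against intact samples. Ano1 rose and Clcn2 fell in unsorted DRG, and the other 3 tested genes did not pass the test. So 2 of 5 passed at an adjusted p under 0.05, where 22.5% of 12392 genes did (14.8% higher and 7.79% lower). None passed the study's 3 criteria, against 7.04% of all genes (4.29% higher and 2.76% lower). Ano1 and Clcn2 both had means below 5 FPKM. Clcn2 also fell short of the ratio criterion, with a log2 ratio of group means of -0.44. Groups did not overlap for 1 gene that was higher and 1 that was lower, as for 20.8% and 12% of all genes. The unsorted samples are shared with the comparison above.

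Ano1 was at 1.43, 2.75, 2.63 and 2.44 FPKM in intact replicates 1 to 4, below all unsorted samples (3.86 to 5.28 FPKM). Intact replicate 1 was the lowest. The intact mean was 2.31 ± 0.603 and the unsorted mean 4.57 ± 0.681 FPKM (SD, n = 4 each), with a ratio of 1.97 and a log2-fold change of 0.98 (SE 0.204, adjusted p = 0.0124 by limma). Without intact replicate 1, or any other sample, the call stayed (0.78 to 1.07). With all 12 samples in the fit, the adjusted p was 0.0541. Beside this rise, 6 of 7 large-diameter neuron markers rose as well, from sums of 1150 to 1385 FPKM in intact to sums of 1939 to 2307 FPKM in unsorted samples. Other markers moved as well: all 6 endothelial, 4 of 8 satellite glial and 4 of 8 pan-neuronal markers rose. Of 4 tested pericyte and smooth muscle markers Acta2 and Myh11 rose, Rgs5 fell and 1 did not pass. Of 11 small-diameter nociceptor markers 3 rose, Trpa1 fell and 7 did not pass. In the same comparison 6 of 7 fibroblast and 5 of 7 macrophage markers fell. The median log2-fold change was 0.92 for the endothelial and 0.77 for the large-diameter neuron list, and the part of these cells in the change of Ano1 was not tested.

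Clcn2 was at 3.97, 5.14, 5.67 and 4.84 FPKM in intact replicates 1 to 4, and the unsorted samples at 3.48 to 3.76 FPKM lay just below the lowest of these. The mean went from 4.90 ± 0.712 to 3.62 ± 0.153 FPKM (SD, n = 4 each). The log2-fold change was -0.42 (SE 0.111, adjusted p = 0.0285 by limma). This call did not hold in 7 of the 8 fits that left out 1 sample (all but the fit without intact replicate 1), where the adjusted p rose as far as 0.0751 while the difference kept its sign (-0.51 to -0.34 over all 8).

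Slc12a2 was at 32.8, 36.3, 33.2 and 34.0 FPKM in intact replicates 1 to 4, within the unsorted range of 31.4 to 39.2 FPKM. Its log2 difference was 0.11 with a 95% interval of -0.084 to 0.31 (adjusted p = 0.372 by limma). Clcn3, at 30.7, 37.4, 36.5 and 35.6 FPKM in intact samples, gave 0.13 with an interval of -0.062 to 0.33 (adjusted p = 0.286). Both pairs of groups overlapped, and neither gene could be called changed or unchanged beyond these intervals. Ano3 was at 35.2, 65.3, 60.1 and 60.1 FPKM in intact samples, so intact replicate 1 alone lay below the unsorted samples and the other 3 lay above them. Its log2 difference was -0.03 (interval -0.42 to 0.37, adjusted p = 0.923), and without intact replicate 1 it was -0.23 (adjusted p = 0.00635).

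Set against intact DRG, MACS-sorted samples again had less Slc12a2, Ano1 and Clcn2 and more Ano3. This comparison shares its samples with both others and is not independent of them. At an adjusted p under 0.05, 4 of 5 genes passed, where 34.8% of 12234 genes did (14.1% higher and 20.6% lower, and 3102 of 5146 higher under quantile normalization against 1728 of 4252), and 2 passed the 3 criteria, against 18.3% (7.54% higher and 10.7% lower). The groups did not overlap for 1 gene that was higher and 3 that were lower, as for 15.6% and 21.9% of all genes. Slc12a2 fell by 0.57 on the log2 scale (SE 0.079, adjusted p = 0.000452), with a mean ratio of 0.671. Ano1 fell by 2.55 (SE 0.390, adjusted p = 0.000857), a smaller distance than from unsorted samples, as its intact level was lower. The intact mean of Ano3 was 55.2 ± 13.5 FPKM (SD, n = 4), and its log2-fold change was 0.61 (SE 0.186, adjusted p = 0.0298), a call that was lost without MACS-sorted replicate 1, 2 or 3 (adjusted p = 0.0688, 0.0571 and 0.0828) and under quantile normalization (0.0679). For Clcn2 the adjusted p was 0.00225, with a fitted difference of -4.62 that has the same limit as above. Clcn3 differed by -0.05, with an interval of -0.26 to 0.17 (adjusted p = 0.744), and its sign turned positive under 2 other scalings (0.011 and 0.0042).

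Around these 6 genes stand 52 others on 7 lists of chloride transport: the remaining cotransporters, the WNK and SPAK kinases that regulate them, the remaining anoctamins, the CLC family with its subunits, the partners of ClC-2 in glia, other chloride channels and the chloride-bicarbonate exchangers. Of these, 34 averaged 1 FPKM or more and could be tested. In MACS-sorted against unsorted samples 7 rose, 14 fell and 13 did not pass, with a median log2-fold change of -0.17 against -0.04 for all genes tested, of which 18.8% rose and 27.7% fell. In unsorted against intact samples 10 rose, 2 fell and 22 did not pass (median 0.28 against 0.01, with 14.8% of all genes higher and 7.79% lower), and in MACS-sorted against intact samples 6 rose, 8 fell and 20 did not pass (median 0.07 against -0.04, with 14.1% of all genes higher and 20.6% lower). Quantile normalization moved the median of all genes to 0.10 and 0.13 in the comparisons with sorted samples.

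Of the other cotransporters, Slc12a4 and Slc12a9 fell and Slc12a7 rose after sorting. Slc12a4 and Slc12a7 encode KCC1 and KCC4, which carry potassium and chloride out of cells. Slc12a4 went from 6.67 ± 0.622 to 1.64 ± 0.538 FPKM (log2-fold change -2.01, adjusted p = 5.06e-05) and Slc12a7 from 5.59 ± 0.816 to 9.68 ± 2.87 FPKM (0.74, adjusted p = 0.0135; SD, n = 4 each). Of the summed FPKM of the 9 cotransporter genes, Slc12a2 held 45.9% to 51.5% in intact samples, 43.0% to 49.4% after dissociation and 38.1% to 42.9% after sorting. The share of Slc12a5 was at most 0.532% in any sample.

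The kinases divided. Stk39, which encodes SPAK, the kinase that phosphorylates NKCC1 and related cotransporters, rose from 51.8 ± 5.32 in intact to 75.9 ± 1.63 FPKM in unsorted samples (0.55, adjusted p = 0.00397) and was at 49.2 ± 3.84 FPKM after sorting (-0.63 against unsorted, adjusted p = 6.26e-05). Its relative Oxsr1 and the scaffold Cab39l rose after sorting (0.32 and 0.38, adjusted p = 0.00469 and 0.00992), while Cab39 and Wnk2 fell (-0.23 and -1.48, adjusted p = 0.0213 and 0.000105). Of 4 other tested anoctamins Ano4 alone passed, and fell from 12.1 ± 1.01 to 6.27 ± 1.42 FPKM (-0.97, adjusted p = 0.001). Ano6, Ano8 and Ano10 did not pass, and Ano10 had risen in unsorted against intact samples (0.39, adjusted p = 0.0103).

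Within the CLC family Clcn5, an endosomal exchanger like ClC-3, had a log2 difference of -0.27 after sorting (adjusted p = 0.0426), a call kept in 7 of 20 alternatives, with an adjusted p of up to 0.119 when 1 sample was left out and up to 0.382 otherwise. The other 4 tested genes did not pass. Clcn3 held 28.0% to 29.5% of the summed FPKM of the CLC genes in sorted and 26.8% to 30.7% in unsorted samples. GlialCAM, encoded by Hepacam, and Mlc1 form a complex at glial membranes, where GlialCAM binds ClC-2. Hepacam was at 8.44, 8.27, 5.85 and 7.60 FPKM in unsorted replicates 1 to 4, was listed at 0 in MACS-sorted replicates 1 and 2 and was at 0.118 and 0.511 FPKM in replicates 3 and 4 (adjusted p = 3.77e-05). Mlc1 did not pass, at 10.4 to 13.1 FPKM unsorted and 9.70 to 17.5 FPKM sorted (0.10, adjusted p = 0.659). The highest sorted values of Hepacam and of Clcn2 were both in replicate 4, where Mlc1 had its lowest sorted value (9.70 FPKM).

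Among other chloride channels Ttyh1, a tweety family gene, fell from 31.9 ± 3.83 FPKM to values between 0 and 1.47 FPKM (adjusted p = 4.69e-05). Ttyh2 and the volume-regulated channel subunits Lrrc8a and Lrrc8c fell too. Lrrc8d, another such subunit, and Tmem206, which encodes the acid-activated chloride channel, rose (0.57 and 0.58, adjusted p = 0.000144 and 0.00103). Of the exchangers Slc4a2 fell from between 19.1 and 22.1 FPKM to at most 8.11 FPKM (-1.42, adjusted p = 1.33e-06). Slc4a3 rose (0.74, adjusted p = 0.00552), and so did Slc4a1, the band 3 anion exchanger of red blood cells and a marker of them here, from 0.231 to 0.905 FPKM unsorted to 15.4 to 90.3 FPKM sorted.

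**Figure D3:**
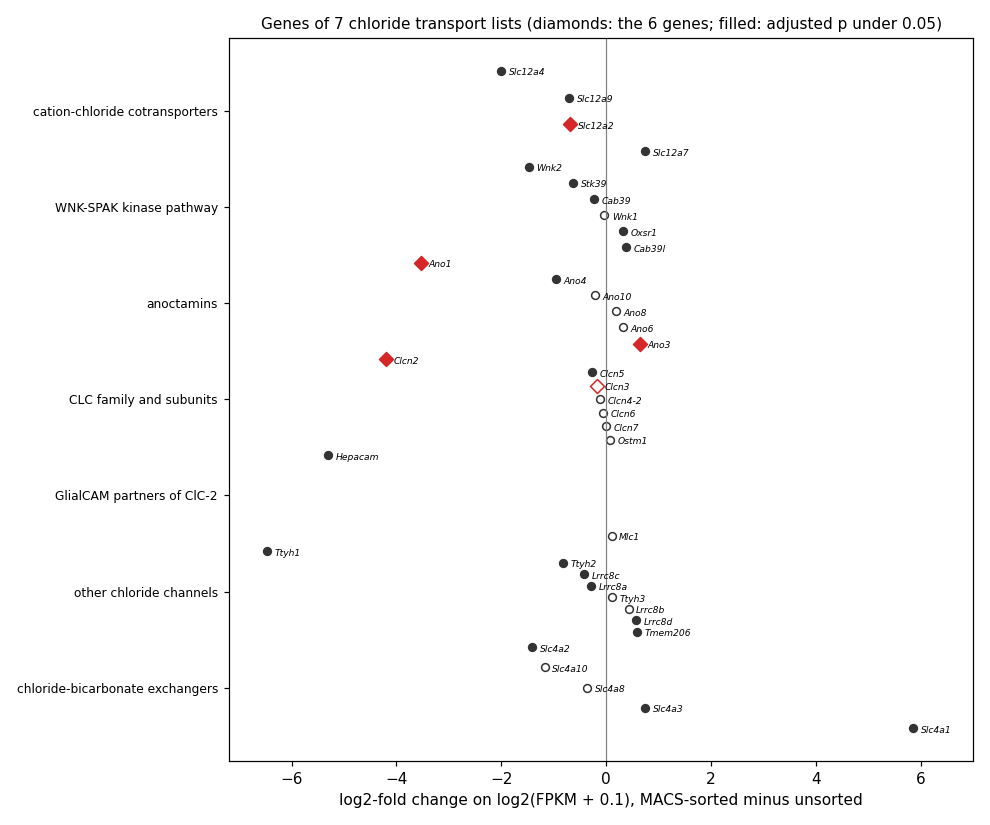
Log2-fold change of MACS-sorted against unsorted samples on log2(FPKM + 0.1) for the genes of the 7 chloride transport lists reported here; diamonds are the genes followed here, circles the others, and filled symbols passed an adjusted p under 0.05. Ttyh1, Hepacam, Clcn2 and Ano1 lie furthest to the left and Slc4a1 furthest to the right, with most other genes within 2 of 0.

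The genes whose pattern over the 12 samples was nearest to each changed gene were sought among 12278 genes, by the root mean square difference of log2(FPKM + 0.1) after each gene's mean was subtracted. This is a description without a test, and the 12 samples fall into the 3 preparations. For Ano1 they were Lgi3, Slc17a7 and Hapln4 (0.187, 0.198 and 0.199). Slc17a7, the vesicular glutamate transporter VGLUT1, had means of 39.2, 80.7 and 6.59 FPKM in intact, unsorted and MACS-sorted samples, and Lgi3 had 29.1, 54.2 and 5.23 FPKM. Near to Slc12a2 were Dnajc10 and Pcca (0.0821 and 0.0947). For Ano3 they were Rbms1, Dock11 and Pgm2l1 (0.0748, 0.0749 and 0.0883), all of which shared its low value in intact replicate 1. Clcn2 had no gene as near, with Slc36a2, Chadl and Acot1 at 0.472, 0.475 and 0.486. All 3 were likewise highest among sorted samples in replicate 4, and Chadl was listed at 0 in 3 and Acot1 in 2 sorted samples. Nearness was measured over these same samples, so such shared features follow from how the genes were chosen.

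**Figure D4:**
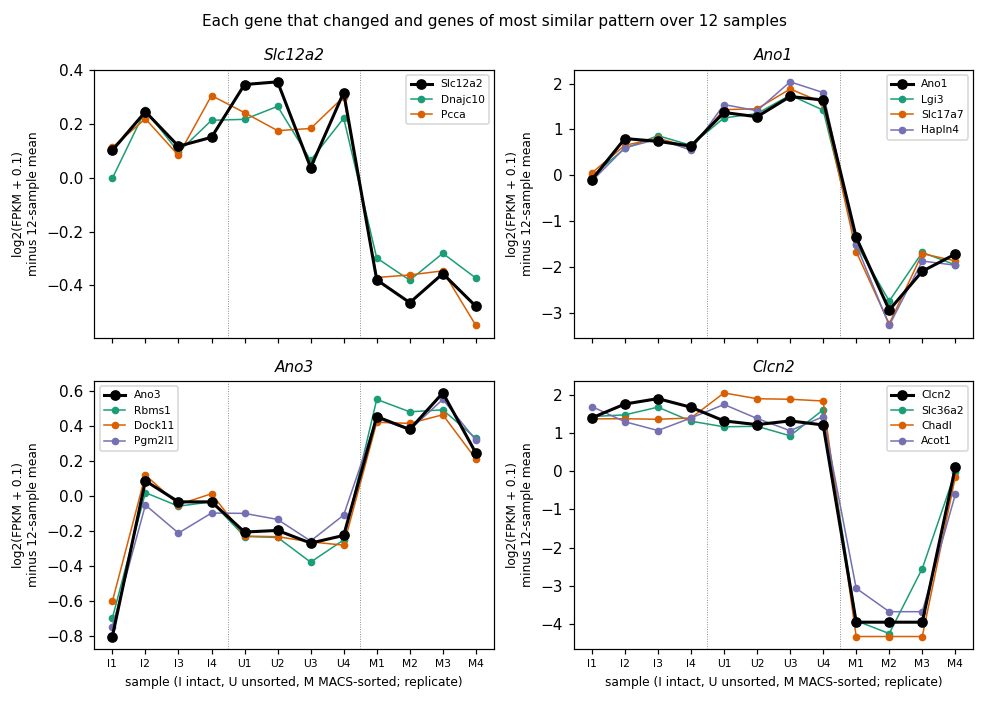
Log2(FPKM + 0.1) minus the mean over 12 samples, for Slc12a2, Ano1, Ano3 and Clcn2 (black) and genes among the 3 nearest to each (colours), in intact (I), unsorted (U) and MACS-sorted (M) replicates 1 to 4; lines join samples only to guide the eye. Ano1 and its nearest genes are highest in unsorted and lowest in MACS-sorted samples, and Clcn2 and its nearest genes are highest among sorted samples in replicate 4. The genes were chosen by these same patterns.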

How the data were processed

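PolyA-selected RNA was sequenced from 4 intact, 4 unsorted and 4 MACS-sorted samples with a directional kit, and groups and replicate numbers were taken from the sample labels. The authors aligned reads to mm10 with TopHat2, merged lanes with SAMtools and obtained FPKM with Cufflinks 2.1.1, and these deposited FPKM were used as given. Whether strand was used in counting is not given in the sources used here, and multiple alignments were limited. The study compared groups with CuffDiff, which needs aligned reads and was replaced by limma 3.58.1 in R 4.3.3, applied to log2(FPKM + 0.1) with the trend option and only the 8 samples of the groups compared. Genes that averaged under 1 FPKM over these were not tested. The added 0.1 makes fold changes of low genes smaller. Where samples are listed at 0, the fitted change can instead be larger than the ratio of means. For Clcn2 in MACS-sorted against intact samples it was -4.62, and the log2 ratio of means was -3.65. Errors are SD over 4 samples.

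Fragment numbers were estimated from the spacing of low FPKM values with a fragment length of 150 bases assumed. Between 93.1% and 100.0% of low values were then whole within 0.1 fragments, and intervals cover the spread between samples only. Gene coordinates, counted from 1, are those of the deposited table. Promoters came from RefSeq and overlaps from GENCODE for GRCm38. Whether mice were shared between groups is not given in the sources used here.

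The 6 genes, the pathway lists and the marker lists were chosen with earlier results of these data known. Genes named are these 6, genes of the pathway lists that passed the test after sorting or after dissociation (as examples), for each of the 6 that changed the 3 genes of nearest pattern, and marker genes. Mlc1, Ano6, Ano8, Muc15, Stk16 and Ap1b1 were named after their values were seen. Procedures were tested on simulated data. Alternatives were other pseudocounts (1 and 0.01), filters, scalings, sample sets, a replicate block and criteria. Values of a few genes were left out of the text and plots, but counts include them. The depth recovered was not used for a count test.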

Additional observations from a re-analysis of the deposited data

Results flagged for a closer look

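Dixon's criterion (gap over range above 0.829) was met in 5 of 51 groups of 4 samples, over 17 genes. In each, 1 sample lay far from the other 3. The criterion is set for about 1 in 20 independent, normally distributed groups. These groups share the same libraries and include values listed at 0, so that rate is no baseline for them. Unsorted replicate 3 had the lowest Slc12a2 of its group, 31.4 FPKM against 38.1 to 39.2 FPKM. MACS-sorted replicate 4 had Clcn2 at 1.56 FPKM where the other sorted samples were listed at 0. For Wnk2, a kinase upstream of the cotransporters, intact replicate 1 was low at 2.18 FPKM against 3.66 to 3.78 FPKM, and unsorted replicate 3 was high at 5.14 FPKM against 3.62 to 3.87 FPKM. Slc4a1 was at 90.3 FPKM in MACS-sorted replicate 4 against 15.4 to 28.0 FPKM in the other sorted samples, and that library also had the highest haemoglobin share, 7.13%.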

How the results depend on the processing

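Of the single-gene calls after sorting, those of Slc12a2, Ano1, Ano3 and Clcn2 against unsorted samples kept their direction and side of the threshold under every alternative in which they were tested. For Clcn2 no alternative replaced the sorted values listed at 0, so these fits cannot show whether those values are failed estimates. A filter at a mean of 5 FPKM, which leaves fewer genes to test, reduced the genes that passed to 2, 0 and 2 (MACS-sorted against unsorted, unsorted against intact, MACS-sorted against intact) and the lower pathway genes to 9, 0 and 3. Over all genes, 3851 of 8128, 2083 of 8406 and 2707 of 8176 passed under that filter, in the same order. No filter gave 5 and 15 lower pathway genes in the latter 2 comparisons. By the 3 criteria, a log2 ratio beyond 1 left 0 of the 6 genes in both comparisons with sorted samples, and a mean above 1 FPKM gave 4, 1 and 4. Counts over all genes were not made for these changed criteria. In unsorted against intact samples, fitting all 12 samples left 0 genes (Ano1 0.98, adjusted p = 0.0541, and Clcn2 -0.42, adjusted p = 0.73) and 6 higher pathway genes. That fit passed 1719 of all 12392 genes, against 2793 in the main fit. In the same comparison 1 gene passed under quantile normalization (Clcn2 -0.38, adjusted p = 0.0613) and 1 with the replicate block. With unsorted replicates 1 and 2 averaged 1 passed (Clcn2 -0.42, adjusted p = 0.064), with 5 higher pathway genes. Over all genes these settings passed 2465 of 12136, 2287 of 12392 and 1692 of 12401, in that order. In MACS-sorted against intact samples, quantile normalization left 1 gene by the 3 criteria and 5 lower pathway genes (Ano3 0.56, adjusted p = 0.0679). Omission of MACS-sorted replicates 3 and 4 also left 1 (Ano3 0.61, adjusted p = 0.111), and Clcn3 turned to 0.011 with median-ratio size factors and 0.0042 without red blood cell genes. Over all genes the 3 criteria passed 2431 of 12303 under quantile normalization and 2150 of 12303 without those replicates. The cotransporter ratio moved to -0.64 and -0.50 with a pseudocount of 1, which by construction weakens Slc12a5. Otherwise the cause was not tested.

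Leaving out 1 sample at a time gave 1 to 3 genes that passed in unsorted against intact samples, 0 to 1 by the 3 criteria and 5 to 13 higher pathway genes, with Clcn2 between -0.51 and -0.34 and Ano3 between -0.23 and 0.066, positive without intact replicate 2, 3 or 4 (0.066, 0.026 and 0.026). Over all genes, between 1594 of 12410 (without unsorted replicate 4) and 4390 of 12294 (without intact replicate 1) passed in these fits. By the 3 criteria, between 579 of 12423 and 885 of 12390 did. The cotransporter ratio in unsorted against intact samples ran from -0.083, without intact replicate 1, to 0.37. In MACS-sorted against unsorted samples Clcn3 ran from -0.23 to -0.14 and the ratio from -0.67, without MACS-sorted replicate 2 (exact p = 0.0286), to -0.32. In MACS-sorted against intact samples 1 to 2 genes met the 3 criteria, 3 to 8 pathway genes were higher (3 without MACS-sorted replicate 2 or intact replicate 2) and Ano3 ran from 0.41 to 0.71. Over all genes, between 2059 of 12298 and 2309 of 12248 met the 3 criteria in these fits. Same-numbered samples did not deviate together (r from -0.14 to 0.067). This cannot exclude that the numbers pair them, because paired samples need not deviate together. With the replicate block Clcn2 no longer passed in unsorted against intact samples (-0.42, adjusted p = 0.0511), and the block changed no other call of the 6 genes. Depth limits Slc12a5 and the sorted values of Ano1, which rest on few fragments. The sorted values of Clcn2 are limited by those listed at 0, which can be failed estimates.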

Other observations

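Trpv1 was at 36.1 ± 4.61 FPKM in unsorted and 51.2 ± 12.5 FPKM in MACS-sorted samples (SD, n = 4 each), and Ano1 at 4.57 ± 0.681 and 0.334 ± 0.181 FPKM. The Trpv1 groups overlapped, with MACS-sorted replicate 4 at 34.6 FPKM inside the unsorted range of 31.6 to 42.5 FPKM, and the adjusted p was 0.0476. Against intact samples Trpv1 did not pass the test (0.37, adjusted p = 0.138 by limma) and Ano1 fell by 2.55.

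Slc4a10, which encodes a sodium-coupled bicarbonate transporter of neurons, had its highest level in intact DRG, at 4.78 ± 0.260 FPKM (SD, n = 4), with 1.68 ± 0.838 FPKM in unsorted and 0.686 ± 0.363 FPKM in MACS-sorted samples. It fell with dissociation (-1.58, adjusted p = 0.0092 by limma), and the difference between sorted and unsorted samples did not pass (-1.17, adjusted p = 0.0514).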
